A study of Mus musculus with 10 samples.

Results

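The mRNAs of the respiratory chain were followed in sorted mouse pancreatic tumour cells, from the genes of the mitochondrial genome and from the nuclear genes that encode the partner subunits. Members were all protein-coding genes whose symbol begins with mt-, Nduf, Uqcr, Atp5, Cox4, Cox5, Cox6, Cox7 or Cox8, together with Sdha, Sdhb, Sdhc, Sdhd, Cyc1 and Cycs, and without pseudogenes. This rule gave 109 of the 51707 genes in the files. Of these, 13 were encoded by the mitochondrial genome and 96 by the nucleus. The nuclear members were 36 subunits of complex I, 8 of its assembly factors, 4 genes of complex II, 9 of complex III, cytochrome c, 20 of complex IV and 18 of complex V. The 109 gene IDs carried 108 symbols, because Atp5o had a second ID (ENSMUSG00000116933) that held no counts.

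The tumours grew in the mouse pancreas from T6-LOH organoids, cultured ductal adenocarcinoma (PDAC) cells of the KPC mouse model, transplanted together with pancreatic stellate cells (PSCs), the fibroblast precursors of the pancreas. In 5 libraries, called Egfr KO PSC, the co-transplanted stellate cells were the knockout line PSC4 EGFR KO B4. In the other 5, called Egfr WT PSC, they were the line PSC4 ROSA (egfr), read here as the control with intact Egfr. The strain label of both groups is C57BL/6J, while NSG mice, an immunodeficient host, stand in the title of the series. The organoids carried the same label in both groups, and Egfr was targeted only in the stellate cells, so its level in the sorted epithelial cells does not check the labels. Because 1 knockout clone was used, the loss of Egfr and other properties of that clone cannot be told apart. Whether the libraries of a group come from different mice is not stated in the labels, and p-values therefore cover the spread among libraries, which may be technical. Replicate numbers only name libraries.

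The respiratory chain lies in the inner mitochondrial membrane. Complexes I and II pass electrons from NADH and succinate to ubiquinone, complex III passes them to cytochrome c and complex IV to oxygen. Complexes I, III and IV pump protons, and complex V, the ATP synthase, uses the proton gradient to make ATP. The mitochondrial genome encodes core proteins of complexes I, III, IV and V and none of complex II. The other subunits are transcribed in the nucleus and imported as proteins, so each of these 4 complexes joins the products of 2 genomes that are transcribed separately. Pancreatic ductal tumours are known to keep using respiration beside glycolysis.

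The 10 libraries held between 39534055 and 53816086 estimated counts in genes, and 26098 to 27379 genes were detected in each. Levels are given as CPM, counts scaled to a fixed library total with TMM normalisation, as the mean ± SD of 5 libraries. Comparisons between genes use the deposited TPM, which is per length. The 6 epithelial markers, among them Epcam and the keratins Krt8, Krt18 and Krt19, summed to 16792 ± 4156 CPM in Egfr KO PSC and 14922 ± 554 CPM in Egfr WT PSC. Of these, 5 averaged higher in Egfr KO PSC and 1 lower. At an unadjusted p under 0.05 by edgeR, 1 of the 6 was higher, against 3.55% of all genes tested. It was Krt7 (2665 CPM in Egfr KO PSC and 2174 CPM in Egfr WT PSC). The 8 fibroblast markers summed to between 335 and 1221 CPM in Egfr KO PSC and between 357 and 905 CPM in Egfr WT PSC. Most of that sum was Col3a1, which averaged 477 CPM in Egfr KO PSC and 412 CPM in Egfr WT PSC. Of the 8, 2 averaged higher in Egfr KO PSC and 6 lower. At an unadjusted p under 0.05, 3 of the 8 were lower, Col1a1, Col1a2 and Dcn, against 4.6% of all genes tested. Col1a1 averaged 96.6 CPM in Egfr KO PSC and 199 CPM in Egfr WT PSC. Col1a2 averaged 20.2 CPM in Egfr KO PSC and 39.0 CPM in Egfr WT PSC. Dcn averaged 6.83 CPM in Egfr KO PSC and 13.9 CPM in Egfr WT PSC. The 8 macrophage markers lay between 51.9 and 86.4 CPM in Egfr KO PSC and between 39.9 and 91.9 CPM in Egfr WT PSC. Of these, 3 averaged higher in Egfr KO PSC and 5 lower. At an unadjusted p under 0.05, 4 of the 8 were lower, Ptprc, Lyz2, Adgre1 and C1qa, against 4.6% of all genes tested. Ptprc averaged 1.03 CPM in Egfr KO PSC and 2.68 CPM in Egfr WT PSC. Lyz2 averaged 3.42 CPM in Egfr KO PSC and 9.99 CPM in Egfr WT PSC. Mrc1, the largest part of the sum, averaged 39.4 CPM in Egfr KO PSC and 27.2 CPM in Egfr WT PSC. The 6 endothelial markers lay between 8.03 and 41.0 CPM in Egfr KO PSC and between 18.7 and 29.6 CPM in Egfr WT PSC. All 6 averaged lower in Egfr KO PSC, none of them at an unadjusted p under 0.05. The 5 erythroid markers, of which none was at 0 in all libraries, lay between 0.905 and 3.55 CPM in Egfr KO PSC and between 6.50 and 42.4 CPM in Egfr WT PSC, without overlap. Of the erythroid markers, 4 were tested, and all 4 were lower in Egfr KO PSC at an unadjusted p under 0.05. The 6 muscle markers lay between 0.721 and 1.74 CPM in Egfr KO PSC and between 0.663 and 5.45 CPM in Egfr WT PSC, with the myosins Myh1 and Myh4 at 0 throughout. The part of these other cell types in the values below was not tested. In sorted bulk samples, fewer cells of a type and less RNA per cell cannot be told apart.

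No respiratory chain mRNA passed the test between tumours with Egfr KO PSC and tumours with Egfr WT PSC, and for most members the confidence interval left room only for changes of less than 1.5-fold. Of the 109 members, 106 had a count in some library and 103 passed the filter on low counts. The 6 that did not pass were Cox6a2, Cox6b2, Cox7b2, Cox8b, Cox8c and the second Atp5o ID. None of the 103 had an adjusted p under 0.05 in edgeR's quasi-likelihood test. Over all 17495 genes tested the share called was likewise 0.0%. DESeq2 called 0.831% of the genes it gave an adjusted p, and 0 members. At an unadjusted p under 0.05 there were 3 members, against 8.15% of all genes tested. Log2 fold changes (Egfr KO PSC divided by Egfr WT PSC) were above 0 for 60 members and below 0 for 43, with a median of 0.03. Over all genes tested 50.1% were above 0, and the median was 0.00041.

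The 95% confidence interval of the fold change stayed within 1.5-fold in either direction for 90 of the 103 members (87.4%). Over all genes tested it did so for 42.4%. These intervals are approximate, worked out from the fold change and the F value of the test. The median distance from the estimate to either end of that interval was 0.26 for members and 0.48 for all genes, on the log2 scale. The genes tested were not matched to the members by level, so these shares do not set the members apart from genes of like level. Groups did not overlap for 2 members, Atp5h and Ndufb5, against 1.52% of all genes tested. The count of members at an unadjusted p under 0.05 depended on single libraries. It was 11 without Egfr WT PSC library 5, 7 without Egfr KO PSC library 3 and 5 without Egfr KO PSC library 1, and it was 1 without Egfr WT PSC library 2, 3 or 4.

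**Figure D1:**
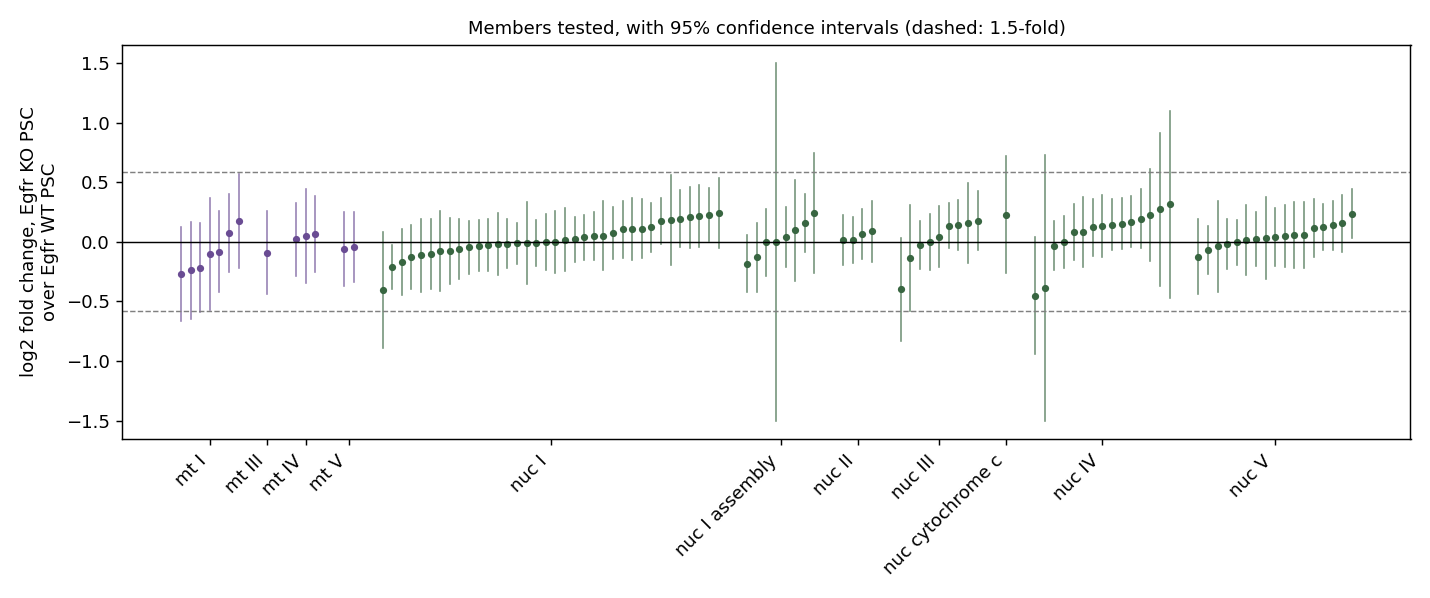
Log2 fold change (Egfr KO PSC divided by Egfr WT PSC) for each of the 103 members tested (points) with its 95% confidence interval (lines), ordered within mitochondrially encoded (mt, purple) and nuclear (nuc, green) groups of each complex, with dashed lines at 1.5-fold. For 90 of the 103 members the interval stays between the dashed lines, and those that reach past them include members of low level such as Ndufaf6, Ndufa4l2 and Cox4i2 and abundant members such as mt-Nd2, mt-Nd5 and Cox7c.

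The 13 mitochondrial mRNAs together made up 1.81% ± 0.244 of the counts in Egfr KO PSC and 1.87% ± 0.297 in Egfr WT PSC (SD, n = 5 each). Their order per length over the 10 libraries began with mt-Atp8 at 11451 ± 1445 TPM and mt-Atp6 at 10211 ± 1321 TPM, the 2 subunits of the ATP synthase that the mitochondrial genome encodes. These neighbours overlap in the genome. Their means lay within each other's SD over libraries, but mt-Atp8 was above mt-Atp6 in every library. They were followed by the complex IV and complex III mRNAs: mt-Co3 at 6489 ± 879 TPM, mt-Cytb, the cytochrome b of complex III, at 4648 ± 851 TPM, mt-Co2 at 4253 ± 597 TPM and mt-Co1, the catalytic subunit of complex IV, at 2486 ± 442 TPM. The means of mt-Cytb and mt-Co2 lay within each other's SD, and mt-Cytb was above mt-Co2 in most libraries but not in all.

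The 7 complex I mRNAs came last in that order. The highest was mt-Nd1 at 2153 ± 335 TPM, followed by mt-Nd4 at 1152 ± 199 TPM and mt-Nd2 at 644 ± 139 TPM. The mean of mt-Nd1 lay within the SD of mt-Co1, but mt-Nd1 was below mt-Co1 in every library. The lowest were mt-Nd6 at 367 ± 72.7 TPM, mt-Nd3 at 286 ± 56.3 TPM, mt-Nd5 at 280 ± 62.2 TPM and mt-Nd4l at 163 ± 37.0 TPM. In nearly every library mt-Nd6 was above mt-Nd3, while the order of mt-Nd3 and mt-Nd5 varied between libraries. The mt-Atp8 and mt-Atp6 genes overlap, as do mt-Nd4l and mt-Nd4, so the division of their reads is uncertain. mt-Nd6 lies on the other strand, and without strand its reads cannot be told apart from those of RNA antisense to it. Effective lengths of short genes are uncertain as well, which touches the levels of mt-Atp8, mt-Nd3 and mt-Nd4l.

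Between the groups, 5 of the 13 mitochondrial mRNAs averaged higher in Egfr KO PSC and 8 averaged lower, with a median log2 fold change of -0.06. That median was -0.15 without Egfr WT PSC library 1, -0.14 without Egfr KO PSC library 1 and nearest to 0 without Egfr KO PSC library 3 (-0.0017). The lowest unadjusted p among them was 0.165. It belonged to mt-Nd5, a proton-pumping subunit of complex I, which had 401, 299, 297, 280 and 276 CPM in Egfr KO PSC and 243, 467, 370, 317 and 474 CPM in Egfr WT PSC. The groups overlapped, because Egfr WT PSC library 1 was below all others and Egfr KO PSC library 1 was above 3 of the Egfr WT PSC libraries. The log2 fold change of mt-Nd5 was -0.27 (adjusted p = 0.73).

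The other large values were likewise within the spread between libraries. mt-Nd2 averaged 383 ± 36.0 CPM in Egfr KO PSC and 453 ± 132 CPM in Egfr WT PSC, with a log2 fold change of -0.24. mt-Nd6 averaged 92.5 ± 19.2 CPM in Egfr KO PSC and 108 ± 23.1 CPM in Egfr WT PSC (-0.22). mt-Nd3, at 45.9 ± 9.75 CPM in Egfr KO PSC and 40.6 ± 8.19 CPM in Egfr WT PSC, had the highest fold change of the 13 on the log2 scale (0.18). For the remaining 9 the log2 fold change lay between -0.10 for mt-Nd4l and 0.08 for mt-Nd1. Among them, mt-Co1, mt-Co2 and mt-Co3 had log2 fold changes of 0.05, 0.07 and 0.02, and mt-Cytb, mt-Atp6 and mt-Atp8 of -0.09, -0.06 and -0.04. The signs of the 3 complex IV mRNAs and of mt-Nd1 turned without Egfr KO PSC library 1 (-0.05 for mt-Co1, -0.02 for mt-Co2, -0.06 for mt-Co3 and -0.03 for mt-Nd1) and likewise without Egfr WT PSC library 1, that of mt-Co1 also without Egfr KO PSC library 5, that of mt-Atp8 without Egfr KO PSC library 3 and that of mt-Nd4 without Egfr KO PSC library 5.

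**Figure D2:**
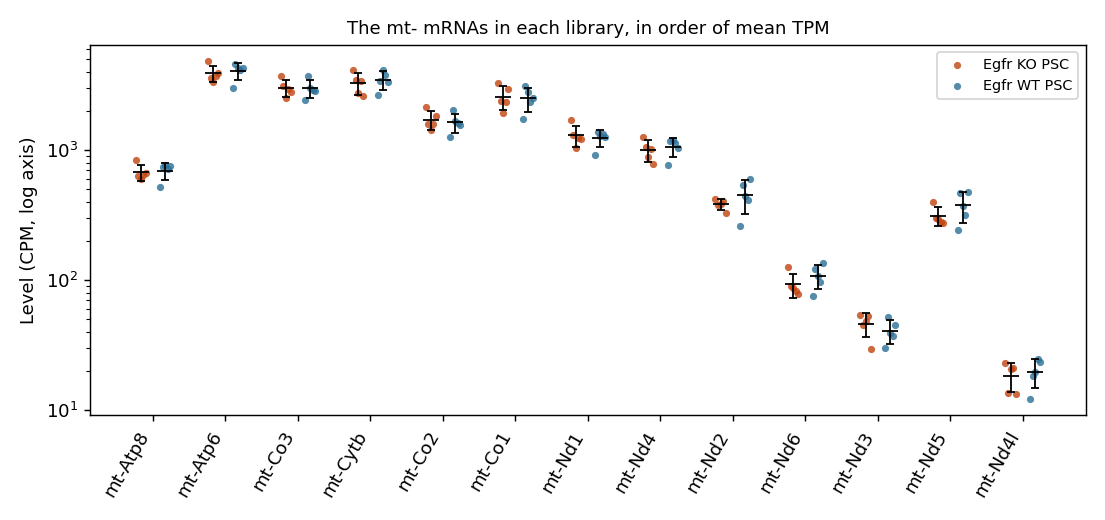
Level of each of the 13 mitochondrial mRNAs (CPM, log axis) in the 5 Egfr KO PSC libraries (orange, left) and the 5 Egfr WT PSC libraries (blue, right), in order of mean TPM, with the mean and SD of each group as bars. The groups overlap for every mRNA shown, and the lowest point of Egfr WT PSC is library 1 for all 13.

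Most mitochondrial mRNAs had their highest or lowest value in the same libraries. Egfr KO PSC library 1 was the highest of the 10 libraries for 8 of the 13, and Egfr WT PSC library 1 was the lowest for 11 of the 13. Not all moved together, as Egfr WT PSC library 5 was the highest for 3 and Egfr KO PSC library 5 the lowest for 2. Summed over the 13, the level was 22904, 18009, 15232, 17747 and 17443 CPM in Egfr KO PSC and 13932, 21313, 20097, 18787 and 18884 CPM in Egfr WT PSC. Egfr KO PSC library 1 had the highest sum and Egfr WT PSC library 1 the lowest, and the groups overlapped over most of their range. The means were 18267 ± 2816 CPM in Egfr KO PSC and 18603 ± 2807 CPM in Egfr WT PSC. The difference of mean log2 sums was -0.02, and it was -0.13 without Egfr WT PSC library 1, -0.11 without Egfr KO PSC library 1, 0.04 without Egfr KO PSC library 3, 0.03 without Egfr WT PSC library 2 and 0.01 without Egfr WT PSC library 3.

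The nuclear members varied less. The nuclear subunits and cytochrome c summed to 11401, 11085, 11833, 11228 and 12195 CPM in Egfr KO PSC and to 11264, 11959, 10116, 10708 and 11523 CPM in Egfr WT PSC. The lowest sum was that of Egfr WT PSC library 3 and the highest that of Egfr KO PSC library 5, with overlap in between. The highest sum was 1.21 times the lowest over the 10 libraries, against 1.64 times for the mitochondrial mRNAs.

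The contrast asked whether the mitochondrial mRNAs and the nuclear mRNAs of the same complexes shifted against each other. For each nuclear count of a subunit or cytochrome c there were on average 1.59 ± 0.271 mitochondrial counts in Egfr KO PSC and 1.68 ± 0.278 in Egfr WT PSC. On the log2 scale this ratio was 1.01, 0.70, 0.36, 0.66 and 0.52 in Egfr KO PSC and 0.31, 0.83, 0.99, 0.81 and 0.71 in Egfr WT PSC. The group with Egfr KO PSC thus held the highest value and the group with Egfr WT PSC the lowest, and the groups overlapped. The difference of means was -0.08, below the SD of either group (0.24 in Egfr KO PSC and 0.26 in Egfr WT PSC). It lay between -0.19 without Egfr WT PSC library 1 and -0.01 without Egfr KO PSC library 3.

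The groups also overlapped within each complex that joins the 2 genomes. Only for complex I was the highest ratio again in Egfr KO PSC and the lowest in Egfr WT PSC. For complex I the log2 ratio of mitochondrial to nuclear CPM averaged -0.19 ± 0.26 in Egfr KO PSC and -0.10 ± 0.28 in Egfr WT PSC, a difference of -0.09 (from -0.21 without Egfr WT PSC library 1 to -0.02 without Egfr KO PSC library 5). For complex III, where cytochrome b is the only mitochondrial product, it averaged 1.35 ± 0.34 in Egfr KO PSC and 1.51 ± 0.29 in Egfr WT PSC, a difference of -0.15 (from -0.25 without Egfr KO PSC library 1 to -0.04 without Egfr KO PSC library 5). For complex IV it averaged 1.58 ± 0.30 in Egfr KO PSC and 1.66 ± 0.25 in Egfr WT PSC. That difference was -0.08 (from -0.17 without Egfr KO PSC library 1 to 0.03 without Egfr KO PSC library 3). For complex V the ratio averaged 0.37 ± 0.20 in Egfr KO PSC and 0.46 ± 0.28 in Egfr WT PSC, a difference of -0.09 (from -0.21 without Egfr WT PSC library 1 to -0.03 without Egfr WT PSC library 3). With all libraries, each of the 4 differences was smaller than the SD of both groups. The ratios share their libraries and their normalisation, so their like signs are not separate observations.

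**Figure D3:**
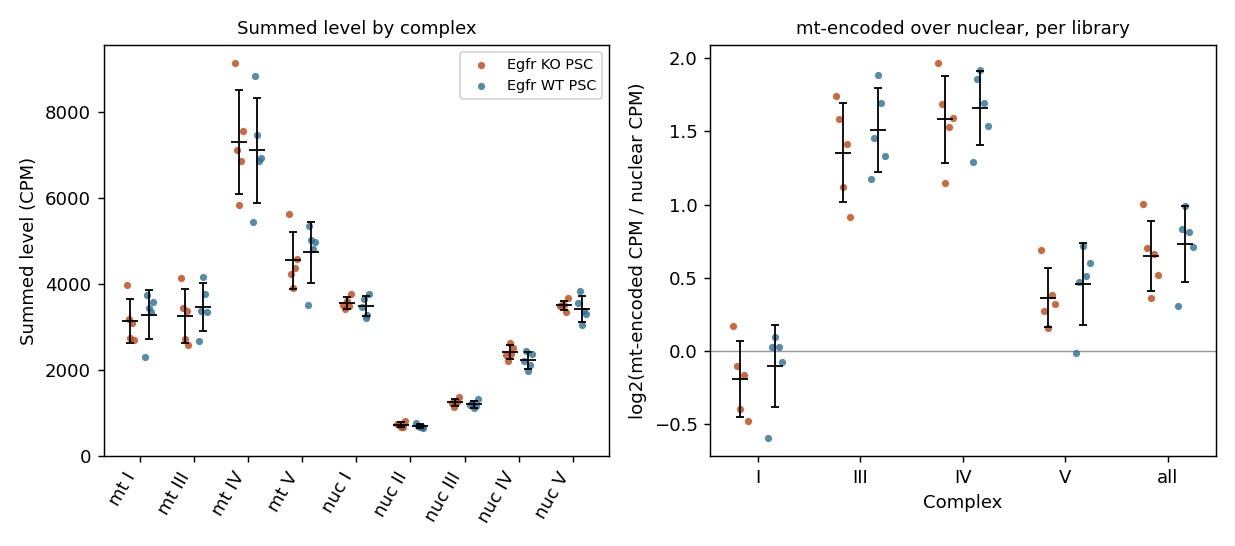
Left, summed CPM of the mitochondrial (mt) and nuclear (nuc) members of each complex in every library of Egfr KO PSC (orange, left of each pair) and Egfr WT PSC (blue, right), and right, the log2 ratio of mitochondrial to nuclear CPM for complexes I, III, IV and V and for all, with means and SD as bars. The groups overlap in every column, and for all complexes together the ratio averages 0.65 in Egfr KO PSC and 0.73 in Egfr WT PSC.

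Per length, the mitochondrial mRNAs held 61.4% ± 4.39 of the summed TPM of all members in Egfr KO PSC and 63.0% ± 3.73 in Egfr WT PSC. The share of the ribosomal RNAs was less even. The 2 mitochondrial rRNAs, mt-Rnr1 and mt-Rnr2, are no members but come from the same genome. They took 0.663%, 0.559%, 1.36%, 0.516% and 0.651% of the counts in Egfr KO PSC and 0.483%, 2.41%, 0.903%, 0.742% and 1.92% in Egfr WT PSC. Egfr WT PSC libraries 2 and 5 and Egfr KO PSC library 3 were above the rest, and the groups overlapped. The ratio of mitochondrial rRNA to mitochondrial mRNA counts was between 0.294 and 0.815 in Egfr KO PSC and between 0.355 and 1.15 in Egfr WT PSC. Only a chosen set of nuclear pseudogene copies of mitochondrial DNA was counted, all from the same chromosome. Its reads equalled between 3.66% and 5.99% of the mitochondrial mRNA counts in Egfr KO PSC and between 3.93% and 5.59% in Egfr WT PSC.

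Among nuclear complex I subunits, 18 of 36 averaged higher in Egfr KO PSC and 18 lower, with a median log2 fold change of 0.00. The 7 core subunits, which carry the flavin, the iron-sulphur clusters and the ubiquinone site, had 3 higher and 4 lower. Ndufb5, an accessory subunit of the membrane arm, had 64.4, 76.9, 72.5, 76.3 and 77.2 CPM in Egfr KO PSC and 86.7, 89.2, 80.5, 85.7 and 83.1 CPM in Egfr WT PSC. Every Egfr KO PSC library was below every Egfr WT PSC library. The log2 fold change was -0.21, with an unadjusted p of 0.0288 and an adjusted p of 0.55 by edgeR, so it did not pass the test.

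Ndufb6, another accessory subunit of the membrane arm, had 76.5, 87.5, 93.9, 82.9 and 107 CPM in Egfr KO PSC and 77.5, 70.9, 75.3, 79.9 and 79.2 CPM in Egfr WT PSC. The groups overlapped through Egfr KO PSC library 1, and the log2 fold change was 0.23 (unadjusted p = 0.0464, adjusted p = 0.60). These 2 subunits of the same arm thus had values of opposite sign. Ndufb9, of the same arm and the second highest nuclear subunit of the complex at 602 ± 41.8 TPM, averaged 246 ± 19.2 CPM in Egfr KO PSC and 218 ± 15.1 CPM in Egfr WT PSC, with a log2 fold change of 0.17 and an adjusted p of 0.66. Ndufa7, of the matrix arm and the highest nuclear subunit at 622 ± 65.8 TPM, averaged 177 ± 8.61 CPM in Egfr KO PSC and 155 ± 24.3 CPM in Egfr WT PSC. Those 2 levels per length do not differ beyond their spread.

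The 8 assembly factors of complex I help to build the enzyme and are not part of it. Their levels lay well under those of most subunits, from 0.828 TPM for Ndufaf6 to 142 TPM for Ndufaf8, and 4 averaged higher in Egfr KO PSC and 4 lower. Ndufaf8, which in human cells stabilises the factor NDUFAF5, averaged 37.7 ± 2.84 CPM in Egfr KO PSC and 33.8 ± 4.28 CPM in Egfr WT PSC, a log2 fold change of 0.16. Ndufaf7, a mitochondrial methyltransferase, averaged 36.6 ± 5.27 CPM in Egfr KO PSC and 35.6 ± 2.36 CPM in Egfr WT PSC. Its sign turned without Egfr KO PSC library 2 (-0.03). Ndufaf1, which acts early in membrane arm assembly, averaged 27.0 ± 3.47 CPM in Egfr KO PSC and 30.7 ± 1.504 CPM in Egfr WT PSC, a log2 fold change of -0.18 with an adjusted p of 0.70.

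Complex II, which is wholly nuclear and also a Krebs cycle enzyme, had the narrowest range of log2 fold changes among the nuclear groups with more than 1 gene. All 4 of its genes lay between 0.01 and 0.09, and their confidence intervals lay within 1.5-fold. The membrane anchor Sdhd, the highest at 250 ± 25.3 TPM, had 206, 186, 190, 176 and 250 CPM in Egfr KO PSC and 219, 202, 171, 171 and 186 CPM in Egfr WT PSC. The highest was Egfr KO PSC library 5 and the rest were mixed. The other anchor, Sdhc, averaged 136 ± 7.79 CPM in Egfr KO PSC and 135 ± 11.5 CPM in Egfr WT PSC. The flavoprotein Sdha averaged 252 ± 22.4 CPM in Egfr KO PSC and 241 ± 18.3 CPM in Egfr WT PSC.

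In complex III, 5 of 9 nuclear genes averaged higher in Egfr KO PSC and 4 lower, with a median log2 fold change of 0.04 (-0.01 without Egfr KO PSC library 3, 0.10 without Egfr KO PSC library 2). The highest per length were the small subunits Uqcr11 at 698 ± 62.6 TPM and Uqcrq at 515 ± 61.0 TPM. Uqcrc2, which forms the matrix-facing core of the complex together with Uqcrc1, averaged 132 ± 11.3 CPM in Egfr KO PSC and 120 ± 3.12 CPM in Egfr WT PSC, with a log2 fold change of 0.14. The nuclear redox-active subunits had the lowest levels of the complex: Cyc1, the haem-bearing cytochrome c1, was at 34.9 ± 9.40 TPM and Uqcrfs1, the Rieske iron-sulphur protein, at 13.2 ± 3.38 TPM. Cyc1 had 29.3, 26.5, 27.4, 23.1 and 16.5 CPM in Egfr KO PSC and 42.2, 27.9, 38.1, 32.1 and 21.5 CPM in Egfr WT PSC. The groups overlapped through Egfr WT PSC libraries 2 and 5, and the log2 fold change was -0.40 (unadjusted p = 0.0682, adjusted p = 0.65).

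Cycs, the cytochrome c that carries electrons from complex III to complex IV, had 46.6, 61.7, 115, 58.7 and 50.5 CPM in Egfr KO PSC and 49.2, 48.8, 53.4, 65.1 and 66.9 CPM in Egfr WT PSC. Far above the other 9 libraries stood Egfr KO PSC library 3. The log2 fold change was 0.23 (adjusted p = 0.82), and -0.05 without that library.

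In complex IV, 11 of the 15 nuclear genes tested averaged higher in Egfr KO PSC and 4 lower, with a median log2 fold change of 0.13, which was 0.05 without Egfr KO PSC library 3 and at most 0.17, without Egfr WT PSC library 2. Egfr KO PSC library 3 was the highest library for 9 of the 15 and Egfr WT PSC library 3 the lowest for 9 of the 15. Summed, the nuclear genes of complex IV had 2345, 2212, 2645, 2380 and 2511 CPM in Egfr KO PSC and 2224, 2446, 1976, 2121 and 2389 CPM in Egfr WT PSC. The groups overlapped, and the difference of mean log2 sums was 0.12, or 0.09 without Egfr KO PSC library 3 and 0.08 without Egfr WT PSC library 3. Cox6c, a small membrane-spanning subunit, averaged 224 ± 15.99 CPM in Egfr KO PSC and 199 ± 20.8 CPM in Egfr WT PSC, with a log2 fold change of 0.17 (adjusted p = 0.69).

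Cox5a, which joins Cox4i1 early in the assembly of the complex, had 21.3, 15.8, 17.3, 12.1 and 12.9 CPM in Egfr KO PSC and 29.2, 20.03, 25.9, 21.3 and 12.4 CPM in Egfr WT PSC. Egfr WT PSC library 5 lay among the lowest Egfr KO PSC libraries. The log2 fold change was -0.45 (unadjusted p = 0.0667, adjusted p = 0.65).

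Several complex IV subunits have a second gene that is used in particular tissues or conditions, and the ubiquitous gene was far above it in each case. Cox4i1 was at 1226 ± 142 TPM over the 10 libraries and Cox4i2, the oxygen-regulated form, at 1.11 ± 0.442 TPM. Cox6a1 was at 1266 ± 125 TPM, while Cox6a2, the heart and skeletal muscle form, had at most 1 count in a library. Cox8a was at 970 ± 126 TPM, while the muscle form Cox8b had at most 1 count and Cox8c had none.

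The remaining pairs followed the same order. Cox6b1 was at 406 ± 41.6 TPM and Cox6b2, known from testis, at 0.776 ± 0.546 TPM. Cox7a2 was at 381 ± 34.6 TPM and the supercomplex factor Cox7a2l at 388 ± 44.5 TPM, which do not differ beyond their spread, and the muscle form Cox7a1 was at 19.3 ± 7.13 TPM. Ndufa4, now counted with complex IV, was at 313 ± 41.9 TPM and Ndufa4l2, a gene induced by hypoxia, at 6.46 ± 3.71 TPM. Ndufa4l2 had 0.897, 1.14, 6.04, 1.74 and 4.04 CPM in Egfr KO PSC and 2.41, 5.15, 2.02, 3.01 and 5.54 CPM in Egfr WT PSC. Its libraries spread widely in both groups, and the log2 fold change of -0.39 had a confidence interval from -1.51 to 0.72.

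None of these paralogues passed the test between groups. Of the ubiquitous forms, Cox7a2 averaged 143 ± 6.35 CPM in Egfr KO PSC and 129 ± 15.4 CPM in Egfr WT PSC, a log2 fold change of 0.15. Cox7a2l averaged 279 ± 43.3 CPM in Egfr KO PSC and 244 ± 15.2 CPM in Egfr WT PSC (0.19). Cox4i1, Cox6a1, Cox6b1, Cox8a and Ndufa4 had log2 fold changes of 0.08, 0.14, 0.08, 0.13 and 0.12.

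**Figure D4:**
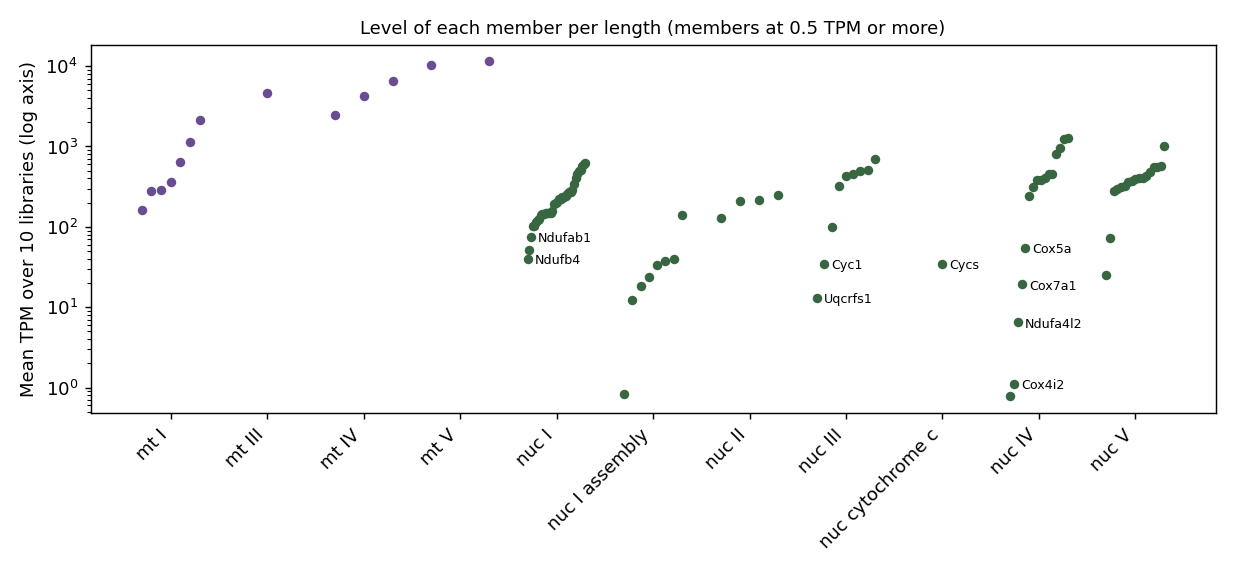
Mean TPM over the 10 libraries (log axis) of each member at 0.5 TPM or more, by complex, with mitochondrially encoded members in purple and nuclear members in green. The mitochondrial mRNAs lie between 163 and 11451 TPM. Apart from Cycs, which is alone in its group, the named nuclear members lie below the bulk of their complex.

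In complex V, 12 of the 17 nuclear genes tested averaged higher in Egfr KO PSC and 5 lower, with a median log2 fold change of 0.04. That median lay between 0.0015 without Egfr WT PSC library 3 and 0.09 without Egfr WT PSC library 2. Atp5h, subunit d of the peripheral stalk that holds the catalytic head in place, had 200, 212, 214, 200 and 212 CPM in Egfr KO PSC and 154, 179, 159, 190 and 199 CPM in Egfr WT PSC. Every Egfr KO PSC library was above every Egfr WT PSC library, by a small margin at the boundary. The log2 fold change was 0.24 (unadjusted p = 0.0271, adjusted p = 0.55), the lowest p of any member, and it did not pass the test.

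The catalytic beta subunit Atp5b was the highest nuclear gene of complex V at 1017 ± 101 TPM, followed by the central stalk subunit Atp5e at 568 ± 67.4 TPM. Atp5b averaged 765 ± 24.7 CPM in Egfr KO PSC and 706 ± 103 CPM in Egfr WT PSC, while its partner in the head, Atp5a1, averaged 598 ± 83.5 CPM in Egfr KO PSC and 652 ± 124 CPM in Egfr WT PSC. The log2 fold changes of this pair were 0.12 and -0.12. The 3 genes that encode the same mature subunit c of the rotor ring had unequal levels: Atp5g1 was at 480 ± 39.1 TPM, Atp5g3 at 312 ± 27.9 TPM and Atp5g2 at 72.3 ± 11.4 TPM. Their log2 fold changes were 0.12, 0.14 and 0.03, all with adjusted p above 0.7. The sign of Atp5g2 turned without Egfr KO PSC library 2 or 4 or Egfr WT PSC library 3 (-0.08 for the last).

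Nuclear respiratory genes are known for promoters that bind the factors NRF1, GABPA and YY1, so the RefSeq promoter windows of the members (250 bases before to 50 after the start, build GRCm38.p6) were searched for the core letters of each motif. Of the 96 nuclear members 77 matched the table, with 82 windows. The NRF1 letters GCATGCG, on either strand, were in 17.1% of the member windows, against 3.58% of all windows in the table and 5.57% of the windows of genes tested. The GABPA letters CCGGAAG were in 22.0% of the member windows, against 8.86% of all windows and 15.8% of those of genes tested. The YY1 letters AAGATGG were in 14.6%, against 6.34% and 6.73%. The last letters of the GABPA string are the same as the opening letters of the YY1 string, so these matches can overlap. A match is a description of the letters, not of binding.

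The windows of the 2 members without overlap between groups and of cytochrome c are shown because they differ in these letters. Capitals mark the motif. That of Cycs (chr6:50566520-50566819, minus strand) holds the NRF1 letters, that of Atp5h (chr11:115419870-115420169, minus strand) holds the GABPA letters in the reverse orientation, and that of Ndufb5 (chr3:32736813-32737112, plus strand) holds none of the 3. All are from RefSeq on GRCm38.p6, written 5′ to 3′ along the gene.
Cycs: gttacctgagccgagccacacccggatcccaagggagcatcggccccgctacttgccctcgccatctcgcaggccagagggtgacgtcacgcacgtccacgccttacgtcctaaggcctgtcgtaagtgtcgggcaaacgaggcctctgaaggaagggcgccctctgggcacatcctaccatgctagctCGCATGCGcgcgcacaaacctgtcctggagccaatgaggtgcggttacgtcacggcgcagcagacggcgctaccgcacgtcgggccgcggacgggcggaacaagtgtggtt
Atp5h: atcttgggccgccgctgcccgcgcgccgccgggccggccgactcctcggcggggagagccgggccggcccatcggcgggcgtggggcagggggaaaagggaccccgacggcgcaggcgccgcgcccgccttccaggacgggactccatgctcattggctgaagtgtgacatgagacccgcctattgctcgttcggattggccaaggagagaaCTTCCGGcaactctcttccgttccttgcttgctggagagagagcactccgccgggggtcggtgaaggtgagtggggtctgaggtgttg
Ndufb5: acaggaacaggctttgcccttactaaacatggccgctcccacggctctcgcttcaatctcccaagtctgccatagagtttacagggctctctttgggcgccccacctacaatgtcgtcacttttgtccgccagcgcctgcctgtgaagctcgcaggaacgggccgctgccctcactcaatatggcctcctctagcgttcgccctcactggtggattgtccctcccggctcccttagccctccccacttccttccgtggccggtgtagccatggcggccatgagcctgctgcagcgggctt

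The mRNAs of the 3 factors did not pass the test. Nrf1 averaged 45.3 ± 4.41 CPM in Egfr KO PSC and 44.2 ± 2.70 CPM in Egfr WT PSC (log2 fold change 0.03). Gabpa averaged 53.8 ± 6.59 CPM in Egfr KO PSC and 51.1 ± 10.4 CPM in Egfr WT PSC (0.07). Yy1 averaged 35.5 ± 5.42 CPM in Egfr KO PSC and 41.9 ± 8.61 CPM in Egfr WT PSC (-0.24, adjusted p = 0.72). Among the members without an entry in the promoter table were Atp5a1, Atp5mpl, Cox4i1, Cox4i2, Cox6a2, Cox6c, Cox8c, Cyc1, Ndufa2, Ndufa4l2, Ndufaf6, Ndufb9, Ndufs1, Sdhc, Uqcrb, Uqcrc2 and Uqcrq. For Atp5o a window was listed only under the second ID, which held no counts. Both IDs share the symbol, so that window may be that of the expressed gene.

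Cyc1, Cox5a and Ndufab1 varied alike over the 10 libraries, a set chosen after their values were seen. Ndufab1 is the mitochondrial acyl carrier protein, which is also a complex I subunit. It had 24.8, 20.5, 26.0, 16.8 and 14.0 CPM in Egfr KO PSC and 32.3, 25.3, 32.7, 29.4 and 15.6 CPM in Egfr WT PSC. Its log2 fold change was -0.41 (unadjusted p = 0.0934, adjusted p = 0.67). Although they belong to 3 different complexes, these genes were each other's most alike members over the 10 libraries, as a description without a test: Pearson's r of log2 CPM was 0.95 for Cyc1 with Ndufab1, 0.94 for Cox5a with Ndufab1 and 0.92 for Cyc1 with Cox5a. The next most alike member of each was Ndufs1, the largest core subunit of complex I, with r between 0.69 and 0.75.

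All 3 were high in Egfr WT PSC libraries 1, 3 and 4 and low in Egfr WT PSC library 5 and Egfr KO PSC libraries 4 and 5. The highest library was 2.56 times the lowest for Cyc1, 2.41 times for Cox5a and 2.34 times for Ndufab1. The partner subunits Uqcrc1 and Cox5b, named for this comparison, had 1.46 times and 1.26 times. Other partners varied as widely or nearly so, with 2.01 times for Uqcrfs1, 2.19 times for Cox7c, 2.65 times for Cox7a1, 3.68 times for Cox4i2 and 6.73 times for Ndufa4l2. Per length these 3 genes were also low for their complexes, with Cox5a at 55.4 ± 18.4 TPM and Ndufab1 at 75.6 ± 26.2 TPM. Their confidence intervals reached beyond 1.5-fold, and the lower bounds of the log2 fold change were -0.83 for Cyc1, -0.94 for Cox5a and -0.89 for Ndufab1. The correlation is over libraries that share both groups and their depth, so it describes these 10 libraries only.

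**Figure D5:**
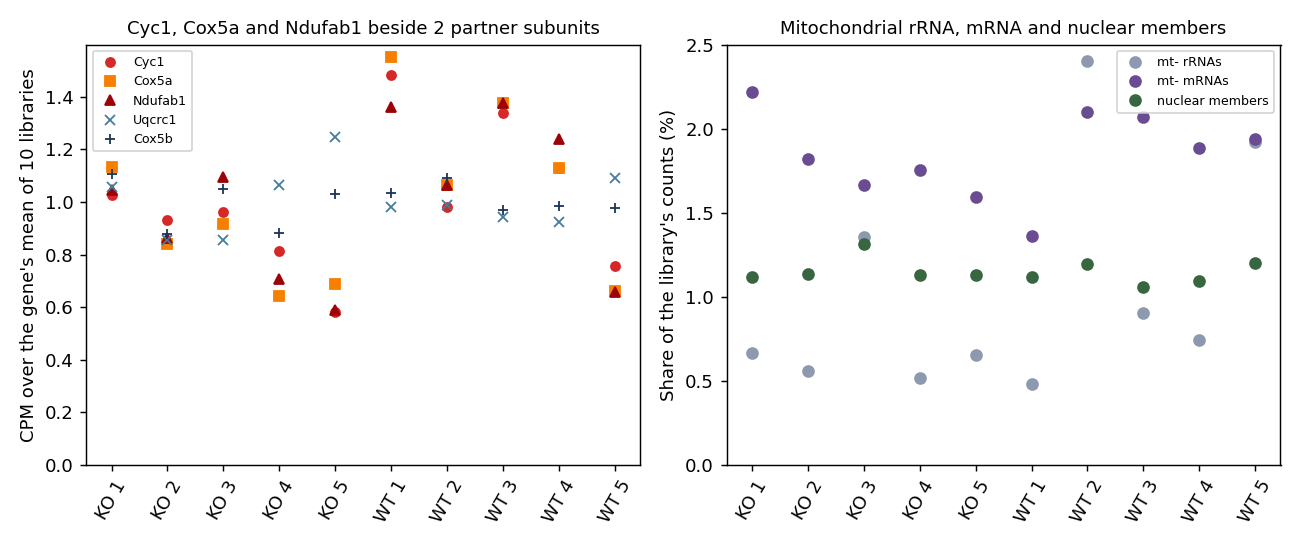
Left, CPM of Cyc1, Cox5a and Ndufab1 and of the partner subunits Uqcrc1 and Cox5b in each library, divided by the mean of the gene over the 10 libraries, and right, the share of counts (%) in the mitochondrial rRNAs, the 13 mitochondrial mRNAs and the nuclear members, with Egfr KO PSC libraries left of Egfr WT PSC libraries. Cyc1, Cox5a and Ndufab1 lie close together in each library, and the rRNA share is highest in Egfr WT PSC library 2 at 2.41%.

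The low level of Ndufb4 may be touched by how reads were divided between it and a pseudogene, which was not tested. Ndufb4 was the lowest complex I subunit at 40.4 ± 3.48 TPM, and its processed pseudogene Ndufb4c held about as many reads, 21.8 ± 1.66 CPM in Egfr KO PSC and 23.1 ± 2.12 CPM in Egfr WT PSC, beside 24.2 ± 0.908 CPM in Egfr KO PSC and 22.4 ± 3.05 CPM in Egfr WT PSC for Ndufb4 itself. Taken as 1 locus, they had 46.0 ± 2.14 CPM in Egfr KO PSC and 45.6 ± 4.70 CPM in Egfr WT PSC.

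Genes that serve the chain from outside the member list were described with the same fit, and none passed the test. Of the 32 genes of mitochondrial gene expression tested, 12 averaged higher in Egfr KO PSC and 20 lower, with a median log2 fold change of -0.05. Polg2, the accessory subunit of the mitochondrial DNA polymerase, averaged 9.33 ± 1.95 CPM in Egfr KO PSC and 7.45 ± 1.06 CPM in Egfr WT PSC (0.33, adjusted p = 0.67). Elac2, which trims the 3′ ends of tRNAs, averaged 5.92 ± 1.27 CPM in Egfr KO PSC and 7.51 ± 1.06 CPM in Egfr WT PSC (-0.34, adjusted p = 0.67).

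Among 14 regulators of respiratory gene transcription tested, 6 averaged higher in Egfr KO PSC and 8 lower. Myc, a transcription factor that also promotes mitochondrial biogenesis, averaged 501 ± 96.5 CPM in Egfr KO PSC and 378 ± 42.3 CPM in Egfr WT PSC, with a log2 fold change of 0.40 (unadjusted p = 0.0133, adjusted p = 0.50). Pprc1, a coactivator of the PGC-1 family, averaged 47.6 ± 13.9 CPM in Egfr KO PSC and 66.8 ± 17.5 CPM in Egfr WT PSC (-0.49, adjusted p = 0.64).

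Of the 46 assembly factors outside the member rule, 15 averaged higher in Egfr KO PSC and 31 lower, with a median log2 fold change of -0.04. At an unadjusted p under 0.05 there were 2 higher and 3 lower, against 3.55% and 4.6% of all genes tested. Acad9, needed for complex I assembly, averaged 62.7 ± 8.52 CPM in Egfr KO PSC and 82.5 ± 17.1 CPM in Egfr WT PSC (-0.40, adjusted p = 0.55). Higd2a, which takes part in the assembly of complex IV and supercomplexes, averaged 71.0 ± 5.75 CPM in Egfr KO PSC and 61.0 ± 3.54 CPM in Egfr WT PSC (0.22, adjusted p = 0.57).

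Of 24 genes of the mitochondrial membranes, import and carriers, 16 averaged higher in Egfr KO PSC and 8 lower, with a median log2 fold change of 0.03. Immt, the mitofilin that shapes the cristae in which the chain sits, averaged 224 ± 26.7 CPM in Egfr KO PSC and 178 ± 8.12 CPM in Egfr WT PSC. Its groups did not overlap and its log2 fold change was 0.33, with an unadjusted p of 0.00572 and an adjusted p of 0.44. The import receptor Tomm22, at 121 ± 3.93 CPM in Egfr KO PSC and 109 ± 6.61 CPM in Egfr WT PSC, did not overlap either (0.15, adjusted p = 0.67). Groups did not overlap for these 2 of the 24 genes, against 1.52% of all genes tested. The same was seen for 1 of the 32 genes of mitochondrial gene expression and for 2 of the 46 assembly factors.

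Of the 17 genes of the Krebs cycle, which feeds the chain with NADH, 15 averaged higher in Egfr KO PSC and 2 lower, with a median log2 fold change of 0.06. The median is small beside the usual distance from their estimates to the ends of the confidence intervals, 0.22 at the median. Over all genes tested, 50.1% had a log2 fold change above 0. At an unadjusted p under 0.05 by edgeR, 2 of the 17 were higher, Idh3a and Cs, and 0 were lower. The shares over all genes tested were 3.55% and 4.6%. Idh3a, the catalytic subunit of the NAD-dependent isocitrate dehydrogenase, averaged 118 ± 11.5 CPM in Egfr KO PSC and 99.1 ± 8.44 CPM in Egfr WT PSC (0.25, adjusted p = 0.55). Cs, the citrate synthase at the entry of the cycle, averaged 193 ± 14.4 CPM in Egfr KO PSC and 166 ± 12.2 CPM in Egfr WT PSC (0.22, adjusted p = 0.57).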

How the data were processed

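The 10 libraries of total RNA from sorted epithelial cells were made from TRIzol extracts with a kit for low input, per the labels' protocols, with a number of PCR cycles that depended on the input. Without molecular identifiers, copies made by PCR count as separate reads. The authors deposited the estimated count, TPM and effective length of each of 147828 transcripts in a library, made with Salmon 1.9.0 on GRCm39 per the submitters' processing notes. No source used here gives the annotation release. The deposited counts are not normalised, and the deposited TPM values are scaled by length and library total.

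Transcripts were assigned to genes by identifier, with names only from GENCODE M21 (GRCm38); 137063 matched, which held between 98.1% and 98.7% of the counts. Counts were summed per gene and rounded. In R 4.3.3, edgeR 4.0.16 fitted the comparison over all genes by quasi-likelihood, after TMM scaling and its default filter (minimum count 10), with no covariate and Benjamini-Hochberg adjustment at 0.05. The script was tested on simulated data. For the confidence intervals, the standard error was the absolute log2 fold change divided by the square root of the F value. The ends were set with quantiles of the t distribution, so the intervals are approximate. Sums and ratios over members carry no p. Members, context lists and markers were chosen with earlier results of these data known. Members named one by one were all 13 mitochondrial mRNAs and, in each nuclear group, the 2 of highest TPM and those of lowest p in each direction, together with the 6 nuclear members of lowest p and the tissue-specific paralogues. From each context list the 2 genes of lowest p at 5 CPM or more were named. Uqcrfs1, Ndufb4, Ndufab1, Uqcrc1, Cox5b, Sdha, Ndufaf6, Cox7c, Nrf1, Gabpa and Yy1 are named outside this rule, with their values known. The values of 1 member are not reported here. Ndufb1-ps, whose annotated type is not protein-coding, was left out by the rule. Promoter windows were RefSeq's for GRCm38.p6.

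No pair of libraries agreed within sampling noise (the chi-square of the closest pair was 34.6 times its degrees of freedom). Alternatives were DESeq2 1.42.0, voom of limma 3.58.1, other size factors, no filter, library totals without mitochondrial genes, effective length offsets, the number in the deposited names as a covariate, and leaving out each library.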

Additional observations from a re-analysis of the deposited data

Results flagged for a closer look

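Within a group of 5 libraries, a value was marked where the highest or lowest library lay further from its nearest neighbour than Dixon's 95% critical value of 0.71 allows, as a share of the range of the group. Chance marks about 1 in 20 groups, and 12 of 118 groups were marked. The libraries share their normalisation, so these are not separate events.

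Egfr KO PSC library 1 was high for mt-Atp8 (840 CPM, next 661), mt-Nd5 (401 CPM, next 299) and mt-Nd6 (126 CPM, next 90.4). Egfr KO PSC library 3 was high for Cycs (115 CPM, next 61.7), Atp5g3 (144 CPM, next 127), Cox6b1 (166 CPM, next 140) and the share of the 2 mitochondrial rRNAs (1.36% of counts, next 0.663%). Egfr WT PSC library 1 was low for mt-Atp8 (515 CPM, next 711), mt-Nd1 (912 CPM, next 1263) and the log2 ratio of mitochondrial to nuclear complex I (-0.59, next -0.07), and high for Uqcrc2 (125 CPM, next 119). Egfr WT PSC library 3 was low for Atp5g1 (146 CPM, next 161).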

How the results depend on the processing

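No paired analysis was possible because the labels number no replicates: the numbers used here follow accession order and only name libraries. No member was called under any alternative or with any library left out. Over all genes, edgeR's 0 calls became 131 with DESeq2 and 1 with no filter, and the 1426 genes at an unadjusted p under 0.05 became 2266 with no filter. With a library left out, these were 0 to 4 calls, 992 to 1983 genes at that p, and 1 to 11 members at that p. The cause was not tested. Turned signs, all of values near 0, were Uqcr11 at 0.00337 (DESeq2), 0.00336 (its size factors), 0.00369 (voom) and 0.00623 (deposited-name number), Sdhc at -0.00525 (length offset) and Atp5g2 at -0.00123 (deposited-name number). With a library left out, the log2 fold change ranged from -0.00293 to 0.135 for Atp5e, from -0.0776 to 0.121 for Atp5g2, from -0.051 to 0.343 for Cycs, from -0.0303 to 0.12 for Ndufaf7, from -0.0183 to 0.0609 for Sdhc, from -0.0599 to 0.0667 for Uqcr11, from -0.133 to 0.00547 for mt-Atp8, from -0.0600 to 0.143 for mt-Co1, from -0.0225 to 0.157 for mt-Co2, from -0.0629 to 0.111 for mt-Co3, from -0.0332 to 0.156 for mt-Nd1 and from -0.179 to 0.000256 for mt-Nd4. The difference in the log2 ratio of mitochondrial to nuclear members lay between -0.10 and -0.07 under the other units, summaries and totals. Counts were few for Ndufaf6 (7 to 25 per library) and Cox4i2 (12 to 36), whose intervals reach beyond 1.5-fold.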
